A study of Mus musculus with 14 samples.

Results

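Neurotrophin ligands, their receptors and a neurotrophin-induced peptide precursor were followed in bulk RNA-seq of mouse brain. The group holds 7 genes, taken by name from the 43346 genes of the deposited count table. These are the ligands Bdnf and Ntf3, the Trk receptors Ntrk2 and Ntrk3, the p75 receptor Ngfr, the sorting receptor Sort1 and the peptide precursor Vgf. Libraries came from a brain cross-section holding hippocampus and cortex of 14 female mice aged 23 months on the C57BL/6;SJL-Tg background. The 4 NTG mice (wild type, non-transgenic) and the 5 APP/PS1 mice (genotype APP/PS1 +/+, with mutant human APP and PS1 transgenes) received vehicle water containing PEG. The other 5 APP/PS1 mice were given CP2, a tricyclic pyrone that mildly inhibits mitochondrial complex I, at 25 mg/kg/day in drinking water from 9 to 23 months of age. NTG mice given CP2 were not analysed here, so a response to CP2 cannot be separated from the transgenes. The labels call the vehicle mice non-treated. Mice are named by the number in their labels.

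Neurotrophins are secreted growth factors that are made as longer precursors and cut to mature ligands. Mature BDNF binds TrkB (Ntrk2) and neurotrophin-3 binds mainly TrkC (Ntrk3), which signal through the MAP kinase, PI3 kinase and phospholipase C routes. The precursors bind p75 (Ngfr) together with sortilin (Sort1), a pair linked to cell death and synaptic weakening. In the adult forebrain Bdnf is made mainly by excitatory neurons and rises with neuronal activity, TrkB is carried by neurons and, in a truncated form, by astrocytes, and p75 is densest on cholinergic neurons of the basal forebrain. A count per gene does not separate full-length from truncated receptors or one Bdnf transcript from another, and mRNA does not show precursor cleavage or receptor phosphorylation. In whole tissue, fewer cells of a type and less RNA per cell cannot be told apart.

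Bdnf (ENSMUSG00000048482) lies on chromosome 2 (mm10, 109674700 to 109727007) and is transcribed from several starts, each joining its own leader exon to a shared coding exon. RefSeq's table (build GRCm38.p6, the same assembly as mm10) held 7 Bdnf starts, 2 for Ntf3, 1 for Ntrk2 and 1 for Ngfr. All 7 Bdnf starts feed the single gene count used here, and 3 of the windows of 250 bases before a start are shown because they differ in base composition and in the one motif match found in Bdnf. Each reads 5′ to 3′ on the plus strand. Capitals mark CGTCA, the reverse complement of the CRE half-site TGACG.
Bdnf start 1, chr2:109674450-109674699, in an intron of Gm45346: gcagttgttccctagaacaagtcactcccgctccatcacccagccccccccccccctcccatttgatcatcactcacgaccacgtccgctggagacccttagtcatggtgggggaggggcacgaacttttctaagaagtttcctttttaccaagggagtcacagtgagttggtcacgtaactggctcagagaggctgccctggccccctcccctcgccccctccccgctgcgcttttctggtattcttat
Bdnf start 3, chr2:109692186-109692435, in an intron of Bdnf: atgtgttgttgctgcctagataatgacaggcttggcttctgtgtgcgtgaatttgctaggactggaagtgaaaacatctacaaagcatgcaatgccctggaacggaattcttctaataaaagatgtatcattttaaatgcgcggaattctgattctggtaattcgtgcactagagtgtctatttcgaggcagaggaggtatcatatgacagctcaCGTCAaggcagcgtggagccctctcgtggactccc
Bdnf start 5, chr2:109694159-109694408, in an intron of Bdnf: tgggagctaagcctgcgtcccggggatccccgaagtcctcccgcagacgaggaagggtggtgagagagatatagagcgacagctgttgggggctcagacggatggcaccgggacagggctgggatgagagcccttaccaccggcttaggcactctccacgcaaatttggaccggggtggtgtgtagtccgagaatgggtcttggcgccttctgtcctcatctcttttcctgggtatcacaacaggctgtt
The first window had 58% G and C and 9 CpG pairs, the third 45.6% and 9, and the fifth 59.6% and 13. Both strands of all 11 windows of these genes were searched for the CRE (TGACGTCA), the AP-1 site (TGAGTCA), the E-box (CACGTG), the EGR1 site (GCGTGGGCG) and, chosen after the first search, the CRE half-site TGACG, whose letters also lie inside the CRE. None held the CRE, the AP-1 site or the EGR1 site, which 1.55%, 4.46% and 0.536% of all 32851 promoter windows held. An E-box stood 231 bases before the first Ntf3 start, against 6.02% of all windows. The half-site stood 35 bases before the third Bdnf start, against 17.8% of all windows. Such matches describe these letters only. In the same build the table placed Ntf3 (ENSMUSG00000049107) on chromosome 6, 126101413 to 126166744, Ntrk2 (ENSMUSG00000055254) on chromosome 13, 58806596 to 59133970, and Ntrk3 (ENSMUSG00000059146) on chromosome 7, 78192362 to 78578408. It placed Ngfr (ENSMUSG00000000120) on chromosome 11, 95568818 to 95587735, Sort1 (ENSMUSG00000068747) on chromosome 3, 108284091 to 108361511, and Vgf (ENSMUSG00000037428) on chromosome 5, 137026392 to 137033351.

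The libraries held 70548781 to 106235625 counts over genes. Levels within a gene are given as CPM, counts divided by the TMM-scaled library size in units of 1000000, in which 1 count was worth 0.00923 to 0.0149 CPM. One library stood apart in striatal markers. In APP/PS1 mouse 16 the summed level of 10 striatal marker genes was 2589 CPM against 210 to 405 CPM in the other 13 mice, and the thalamic sum was the lowest of all, at 255 CPM. Differences of the 7 genes that include mouse 16 are therefore given with and without it. Other regional sums were uneven too. Hypothalamic markers summed to 115 CPM in CP2-treated mouse 23 and 66.4 CPM in CP2-treated mouse 22, against 7.55 to 33.8 CPM in the other mice. Mouse 23 also had a striatal sum of 405 CPM and a thalamic sum of 796 CPM. Choroid plexus markers ranged from 20.3 to 1356 CPM. The part of these sums in the values of the 7 genes was not tested. The deposited counts showed no pair of libraries of one group that agreed within sampling noise.

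Length-scaled levels spanned a wide range. On the deposited RPKM scale (reads scaled by gene length and by the mapped reads of each library), Sort1 had the highest median over the 14 mice, 56.9 RPKM (range 53.3 to 65.8). Ntrk2 followed at 46.3 RPKM (41.5 to 51.6) and Vgf at 40.1 RPKM (29.1 to 54.4). Sort1 exceeded Ntrk2 in 14 of 14 mice, whereas Ntrk2 exceeded Vgf in 9 of 14, so Ntrk2 and Vgf did not separate.

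Ntrk3 was lower, at 7.13 RPKM (6.28 to 7.94), and Ntrk2 exceeded it by a median factor of 6.36 within a mouse. The ligands were lower still, with Bdnf at 2.44 RPKM (1.66 to 3.80) and Ntf3 at 1.09 RPKM (0.507 to 1.40). Ngfr had a median of 0.967 RPKM (0.588 to 2.02). Bdnf exceeded Ntf3 in 14 of 14 mice and Ngfr in 13 of 14, mouse 16 being the exception, and Ntf3 exceeded Ngfr in 10 of 14. These orders depend on the gene lengths used by the authors, and Ntrk2 has the longest, 13806 bases over all its transcripts.

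**Figure D1:**
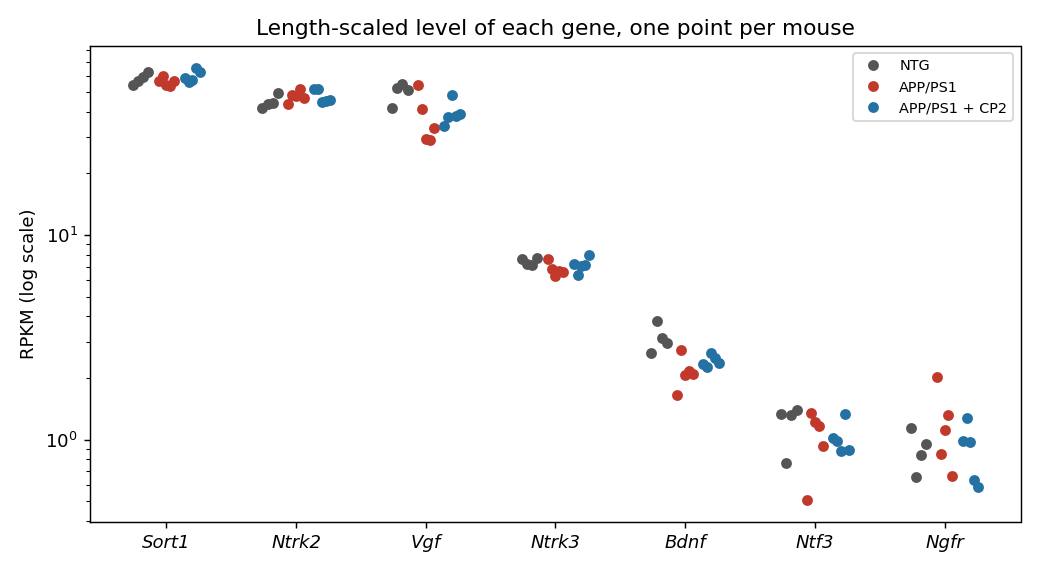
Deposited RPKM of the 7 genes on a log axis, ordered by median, with one point per mouse coloured by group. Sort1, Ntrk2 and Vgf lay between 29.1 and 65.8 RPKM, Ntrk3 near 7.13 RPKM, and Bdnf, Ntf3 and Ngfr at or below 3.80 RPKM.

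The first comparison asked how the ligands and receptors of APP/PS1 mice on vehicle differed from those of NTG mice. Bdnf was the one gene of the 7 that passed the test, and it was lower in APP/PS1 mice by 34.9%. Over all 16417 genes tested, 5.68% passed in either direction and 1.34% were lower. Vgf and Ntrk3 passed as well once mouse 16 was left out, and both were then lower. Ntrk2, Ntf3, Ngfr and Sort1 did not pass in any fit tried.

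Bdnf encodes brain-derived neurotrophic factor, which supports synaptic plasticity and memory. Its level was 20.4, 30.6, 24.9 and 22.2 CPM in NTG mice 7, 8, 9 and 10. In APP/PS1 mice 16 to 20 it was 12.5, 19.7, 15.1, 16.01 and 16.2 CPM. Every APP/PS1 mouse was below every NTG mouse, a pattern (groups not overlapping, lower) seen for 4.11% of all genes tested, and APP/PS1 mouse 17 came closest to NTG mouse 7.

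The group means were 24.5 ± 4.42 CPM in NTG (SD, n = 4) and 15.9 ± 2.60 CPM in APP/PS1 (SD, n = 5). The log2 fold change was -0.62 (SE 0.14, 95% CI -0.94 to -0.30, edgeR adjusted p = 0.0331). On the RPKM scale the groups overlapped slightly, since APP/PS1 mouse 17 reached 2.75 RPKM and NTG mouse 7 had 2.66 RPKM.

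The Bdnf call of this edgeR fit was close to the threshold. With all mice, 7 of 8 alternative fits also called Bdnf. These included DESeq2 (adjusted p = 0.00083), all 3 groups in one edgeR fit (adjusted p = 0.00674) and limma-voom (adjusted p = 0.0145). The exception was the ribosomal RNA covariate given below. Without mouse 16 the log2 fold change was -0.55 and the edgeR adjusted p was 0.0254. It remained under 0.05 without NTG mouse 7 (0.0305) or APP/PS1 mouse 17 (0.0191). It rose above 0.05 without NTG mouse 8, 9 or 10 (0.0873, 0.0919 and 0.0584) and without APP/PS1 mouse 18, 19 or 20 (0.0779, 0.0691 and 0.0694). The log2 fold changes lay between -0.71 and -0.49 over all 9 omissions. Other values moved with the groups. Reads of the ribosomal RNA-like genes Yam1 and AY036118 made up 4.72 to 7.50% of counts in NTG and 2.40 to 5.51% in APP/PS1 mice, and mouse 8, highest in Bdnf, also had the highest share. With that share as a covariate, added after seeing the data, the log2 fold change was -0.47 (edgeR adjusted p = 0.261). Summed dentate gyrus granule cell markers were 403 to 446 CPM in NTG and 362 to 396 CPM in APP/PS1 mice, while summed neuronal markers overlapped (5724 to 6181 and 5197 to 5881 CPM). Their part in the Bdnf difference was not tested.

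Ntf3 encodes neurotrophin-3. It measured 2.35, 1.41, 2.39 and 2.41 CPM in NTG and 0.875, 2.229, 2.03, 1.99 and 1.65 CPM in APP/PS1 mice, with 76 to 241 counts behind each value over all mice. The groups overlapped, with mouse 8 low in NTG and mouse 16 low in APP/PS1. Its log2 fold change was -0.28 (SE 0.26, 95% CI -0.86 to 0.30, edgeR adjusted p = 0.639). Without mouse 16 it was -0.11 (SE 0.18).

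**Figure D2:**
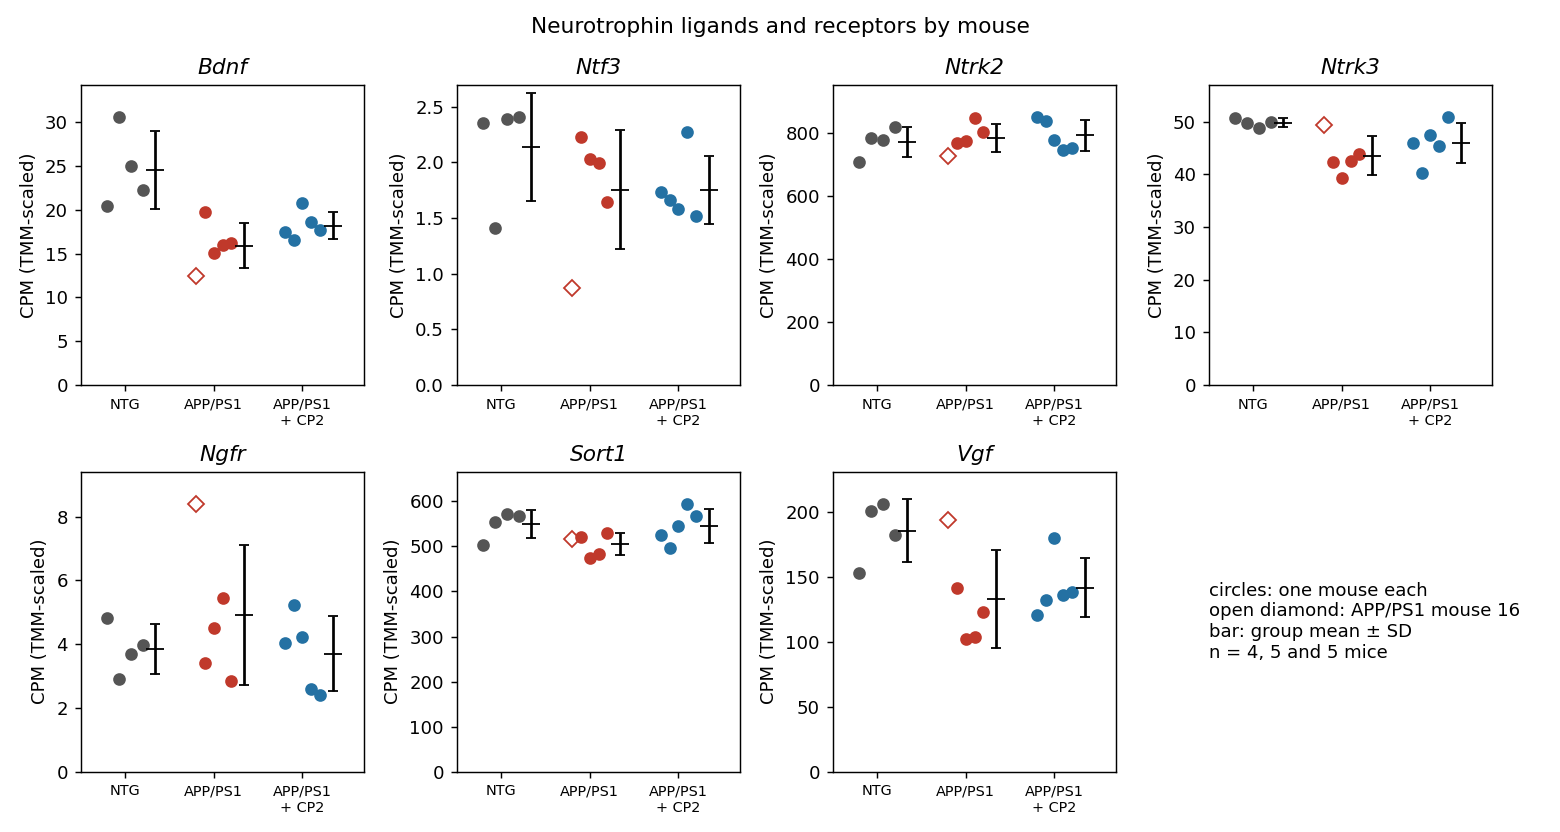
TMM-scaled CPM of each gene (vertical axes from 0) in NTG, APP/PS1 and CP2-treated APP/PS1 mice, with one point per mouse, the open diamond for APP/PS1 mouse 16 and bars for the group mean ± SD. In Bdnf all APP/PS1 points lie below all NTG points, and in Ngfr, Vgf and Ntrk3 the open diamond is the highest of the APP/PS1 points.

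Among the receptors, Ntrk2 (TrkB, the BDNF receptor) was level across groups. It measured 708, 783, 779 and 820 CPM in NTG and 728, 767, 775, 849 and 802 CPM in APP/PS1 mice. The groups overlapped along most of their range, and the log2 fold change was 0.03 (95% CI -0.11 to 0.17, edgeR adjusted p = 0.856), and 0.05 (95% CI -0.09 to 0.19) without mouse 16.

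Ntrk3, the neurotrophin-3 receptor TrkC, was the most even gene among NTG mice, at 50.7, 49.8, 48.9 and 50.0 CPM. In APP/PS1 mice it was 49.4, 42.3, 39.3, 42.5 and 43.9 CPM. Only mouse 16 fell inside the NTG range, and the other 4 APP/PS1 mice were below it. With all mice the log2 fold change was -0.19 (SE 0.06, edgeR adjusted p = 0.118). Without mouse 16 it was -0.24 (SE 0.05, 95% CI -0.35 to -0.13, edgeR adjusted p = 0.0128), a decrease of 15.4%.

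Vgf is induced by neurotrophins and neuronal activity and is cut to several secreted peptides. NTG mice had 152, 201, 206 and 182 CPM. APP/PS1 mice had 193, 141, 102, 104 and 123 CPM, so that mouse 16 was high and the other 4 were below every NTG mouse. With all mice the log2 fold change was -0.48 (SE 0.18, 95% CI -0.87 to -0.08, edgeR adjusted p = 0.179). Without mouse 16 it was -0.65 (SE 0.12, 95% CI -0.92 to -0.38, edgeR adjusted p = 0.00747), a decrease of 36.4%.

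With mouse 16 left out, 3 of the 7 genes therefore passed, all of them lower. In that fit 8.99% of all genes passed in either direction and 2.4% passed as lower. The groups did not overlap for Bdnf, Ntrk3 and Vgf, against 6.25% of all genes in the lower direction, and on the RPKM scale this held for Ntrk3 and Vgf but not for Bdnf. A fit that kept mouse 16 and weighted libraries by quality (limma-voom) gave the same 3 calls. Its adjusted p was 0.0145 for Bdnf, 0.0191 for Ntrk3 and 0.01 for Vgf. Such weights can reduce the part of a library that differs from its group, so this fit is not independent of leaving out mouse 16. It was the only 1 of 8 alternatives with all mice that called Ntrk3 or Vgf. DESeq2 gave adjusted p = 0.0762 for Ntrk3 and 0.0776 for Vgf, and all 3 groups in one edgeR fit gave 0.11 and 0.105.

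Sort1, or sortilin, sorts the BDNF precursor and binds it at the cell surface with p75. It measured 504, 553, 572 and 568 CPM in NTG and 517, 521, 475, 483 and 531 CPM in APP/PS1 mice, which overlapped. The log2 fold change was -0.11 (95% CI -0.24 to 0.01, edgeR adjusted p = 0.313), and -0.12 (adjusted p = 0.278) without mouse 16. Sort1 shares 338 exon bases with the antisense gene Gm12523, which had 852 to 1430 counts against 37204 to 63079 for Sort1. The strand setting of the counting is not given in the sources used here.

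Ngfr, the p75 receptor, was the most variable gene in APP/PS1 mice. NTG mice had 4.84, 2.92, 3.69 and 3.97 CPM. APP/PS1 mice had 8.40, 3.40, 4.50, 5.46 and 2.83 CPM, of which only the value of mouse 16 was far above the rest. The log2 fold change was 0.36 (SE 0.30, 95% CI -0.30 to 1.01, edgeR adjusted p = 0.589) and 0.07 (SE 0.22) without mouse 16.

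The Ngfr value of mouse 16 came with other genes of basal forebrain cholinergic neurons. Their summed level over 7 genes was 63.8 CPM in mouse 16 and 3.08 to 13.7 CPM in the other mice. Chat, the acetylcholine-synthesizing enzyme, reached 10.8 CPM against 0.586 to 2.20 CPM, and Lhx8, a transcription factor of these neurons, 6.62 CPM against 0 to 0.626 CPM. The same mouse had the lowest Bdnf and Ntf3 of all 14 mice. The 4 other APP/PS1 mice and the 4 NTG mice overlapped in Ngfr and Chat.

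**Figure D3:**
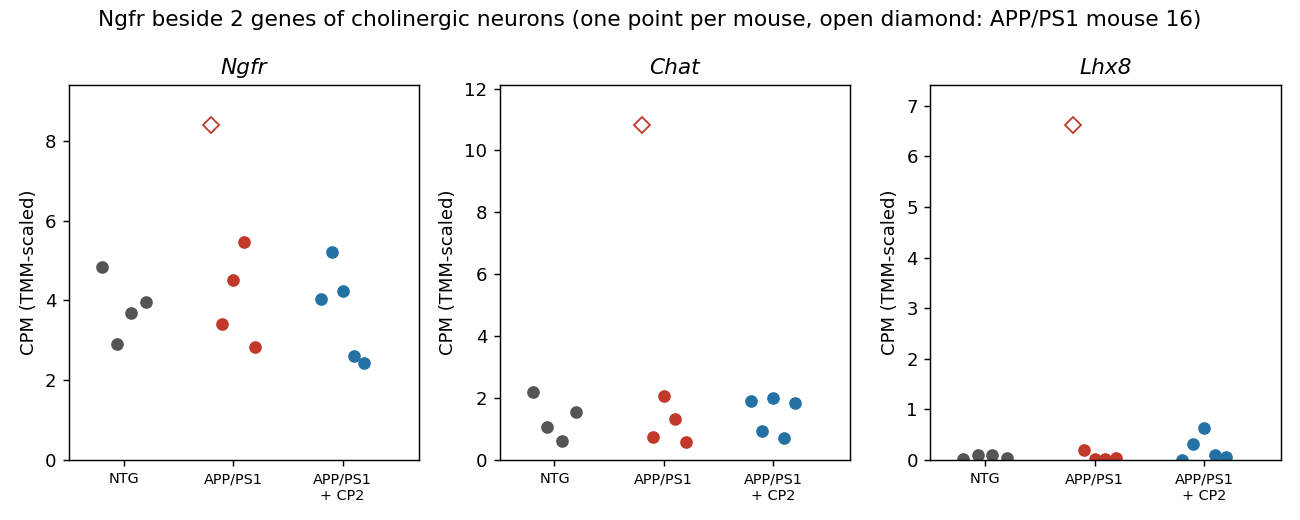
TMM-scaled CPM of Ngfr, Chat and Lhx8 (vertical axes from 0), with one point per mouse and the open diamond for APP/PS1 mouse 16. Mouse 16 is above all 13 other mice in each panel, at 8.40, 10.8 and 6.62 CPM.

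The second comparison asked whether CP2 moved these genes in APP/PS1 mice. None of the 7 passed the edgeR test, and 1 gene of 16407 (0.00609%) passed in the whole table. None passed at an unadjusted p under 0.05 either, against 6.55% of all genes, and none passed with DESeq2, with limma-voom or without mouse 16 (0.00606% of all genes). With 5 mice per group this does not show equality, and the intervals below give what the data allow.

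Bdnf in CP2-treated mice 21 to 25 was 17.4, 16.6, 20.7, 18.6 and 17.6 CPM, or 18.2 ± 1.59 CPM (SD, n = 5). Of these, 1 value lay above the APP/PS1 range and 4 within it. The log2 fold change against vehicle was 0.20 (SE 0.11, 95% CI -0.04 to 0.43, edgeR adjusted p = 0.749). Mouse 23, the highest, also had the highest ribosomal RNA-like share of its group, 7.40% against 4.49 to 4.88% in the others. Without mouse 16 the log2 fold change was 0.12 (95% CI -0.07 to 0.31).

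Vgf was 120, 132, 180, 136 and 138 CPM with CP2. The values sat among those of the vehicle group, with a log2 fold change of 0.09 (95% CI -0.29 to 0.47, edgeR adjusted p = 0.918). This value moved with single mice. Without mouse 16 the difference was 0.27 (95% CI -0.0015 to 0.54, edgeR adjusted p = 0.522), without APP/PS1 mouse 18 or 19 it was 0.0073 or 0.015, and without CP2-treated mouse 23 it was -0.0062.

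Ntrk3 was 45.9, 40.3, 47.4, 45.5 and 50.9 CPM with CP2, and its log2 fold change was 0.08 (95% CI -0.08 to 0.24). Without mouse 16 it was 0.13 (95% CI -0.01 to 0.28, edgeR adjusted p = 0.538). Sort1 was 525, 497, 544, 594 and 567 CPM, overlapping the vehicle group, with a log2 fold change of 0.11 (95% CI -0.01 to 0.24, edgeR adjusted p = 0.749), and 0.12 without mouse 16.

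Ntrk2 was 851, 838, 777, 745 and 754 CPM with CP2, a log2 fold change of 0.02 (95% CI -0.11 to 0.14), and -0.01 (95% CI -0.14 to 0.12) without mouse 16. Ntf3 was 1.74, 1.66, 1.58, 2.27 and 1.52 CPM, a log2 fold change of 0.00 (95% CI -0.49 to 0.49), and -0.17 (95% CI -0.48 to 0.15) without mouse 16. Ngfr was 4.04, 5.22, 4.24, 2.61 and 2.42 CPM, all of them under the 8.40 CPM of mouse 16. Its log2 fold change was -0.41 (95% CI -1.08 to 0.26, edgeR adjusted p = 0.797), and -0.13 (95% CI -0.68 to 0.43) without mouse 16.

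**Figure D4:**
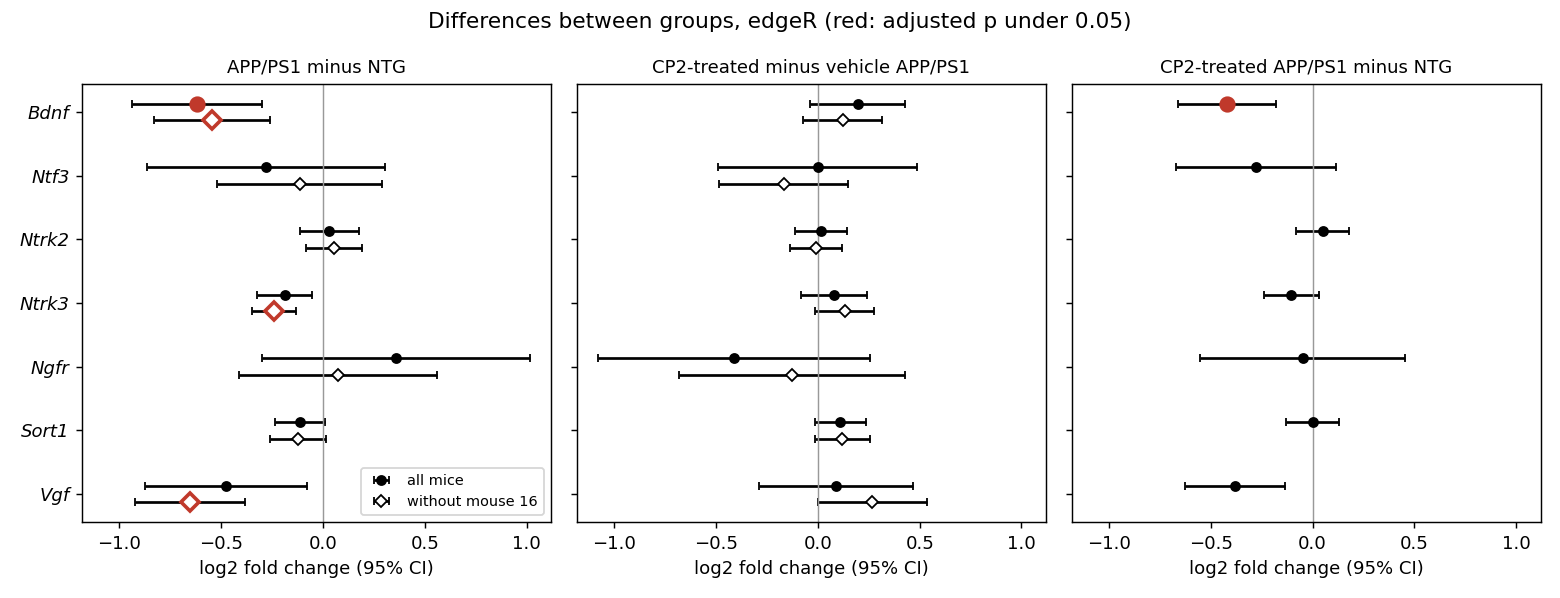
Log2 fold changes (horizontal axes) of the 7 genes in the comparisons of APP/PS1 with NTG, CP2 with vehicle in APP/PS1, and CP2-treated APP/PS1 with NTG, as edgeR estimates with 95% CI, filled circles for all mice and open diamonds without mouse 16. Red marks adjusted p under 0.05: Bdnf is red at -0.62 and -0.42 in the outer panels, Vgf and Ntrk3 are red only without mouse 16, and no gene is red in the middle panel.

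Against NTG, CP2-treated APP/PS1 mice had lower Bdnf, the 1 gene of the 7 that passed, beside 6.02% of all 16416 genes tested and 1.46% in the lower direction. The log2 fold change was -0.42 (SE 0.11, 95% CI -0.66 to -0.18, edgeR adjusted p = 0.0458), a decrease of 25.2%. CP2-treated mouse 23 (20.7 CPM) exceeded NTG mouse 7 (20.4 CPM), and the other 4 CP2-treated mice were below every NTG mouse. This call too was at the threshold: leaving out each mouse gave adjusted p values from 0.0201 to 0.11, under 0.05 only without NTG mouse 7 (0.0201) or CP2-treated mouse 23 (0.0358). The values above 0.05 came without NTG mouse 8, 9 or 10 (0.0928, 0.11 and 0.0522) and without CP2-treated mouse 21, 22, 24 or 25 (0.106, 0.1, 0.0879 and 0.0911). Without NTG mouse 8 the difference was -0.29.

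Vgf was lower by 0.38 on the log2 scale in CP2-treated APP/PS1 than in NTG mice (95% CI -0.63 to -0.13) and did not pass (edgeR adjusted p = 0.0778). It passed without NTG mouse 7 (adjusted p = 0.0296) or CP2-treated mouse 23 (adjusted p = 0.0121). With all mice it passed under DESeq2 (adjusted p = 0.0111), limma-voom (adjusted p = 0.0197) and the ribosomal RNA covariate (edgeR adjusted p = 0.04). The other 5 genes had log2 fold changes between -0.28 for Ntf3 and 0.05 for Ntrk2. Ntrk3 differed by -0.10 (95% CI -0.24 to 0.03). The comparisons of both APP/PS1 groups with NTG share the same 4 NTG mice, so they are not independent of each other.

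The rest of the pathway was described from lists of genes assembled with earlier results of these data known. Of 8 other ligands and receptors tested, none passed in any of the 3 comparisons with all mice. Ntf5 (neurotrophin-4, means 0.218, 0.153 and 0.163 CPM) did not pass the filter on low counts and was not tested. Nradd, which resembles p75, had the smallest p of the list in APP/PS1 against NTG mice (0.40, adjusted p = 0.337, and 0.36 without mouse 16), and Sorcs1, a sortilin relative, in CP2-treated APP/PS1 against NTG mice (0.18, adjusted p = 0.189).

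Of 16 tested genes of precursor processing and release, 2 passed in CP2-treated mice against NTG, both higher, beside 6.02% of all genes. Furin, a protease that cuts neurotrophin precursors, was among them and rose by 0.20 on the log2 scale (edgeR adjusted p = 0.0218). In APP/PS1 mice Furin was 0.15 higher (adjusted p = 0.0743) with all mice and 0.17 higher (adjusted p = 0.0345) without mouse 16. In that comparison 1 of the 16 genes passed with all mice and 2 passed without mouse 16, all higher. The shares of all genes were 5.68% and 8.99%.

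Both APP/PS1 groups had higher summed markers of reactive astrocytes and microglia than NTG. Summed reactive astrocyte markers were 474 to 735 CPM in NTG, 1384 to 3365 in vehicle and 1618 to 2745 in CP2-treated APP/PS1 mice, and microglial markers 343 to 360, 655 to 911 and 533 to 817 CPM. General astrocyte markers were lower in sum, at 5110 to 5694 CPM in NTG, 4445 to 4949 in vehicle and 4494 to 4863 in CP2-treated mice, and the sums of oligodendrocyte markers overlapped. Gene by gene the 9 general astrocyte markers were mixed. In vehicle APP/PS1 against NTG mice 3 were higher and 6 lower (median -0.10). Without mouse 16, 4 were higher and 5 lower (median -0.035). In CP2-treated against NTG mice 2 were higher and 7 lower (median -0.17). The part of these cell markers in the Furin values was not tested.

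Of 41 Trk adaptor and signalling genes, none passed in APP/PS1 against NTG mice with all mice, and the median log2 fold change was -0.02 (all genes 0.00). Without mouse 16, 3 passed: Akt2 (-0.25, adjusted p = 0.0122) and the adaptor Shc3 (-0.47, adjusted p = 0.0199) fell, and the adaptor Gab2 rose (0.31, adjusted p = 0.0284). These are 3 of 41, beside the 8.99% of all genes called in that fit. These 3 were named after their values were seen. Shc3, a neuronal Shc adaptor, was 39.6 ± 4.58 CPM in NTG, 30.2 ± 4.85 in vehicle and 37.2 ± 3.62 in CP2-treated APP/PS1 mice (SD).

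With CP2 against vehicle Shc3 had the smallest p of this list (0.30, adjusted p = 0.744, and 0.39 with adjusted p = 0.314 without mouse 16), and no gene of it passed. Against NTG, CP2-treated mice had lower Akt2 (-0.24, adjusted p = 0.0109) and higher Frs2, an adaptor of Trk receptors (0.13, adjusted p = 0.0488). Of the 41 genes, 1 passed as lower and 1 as higher in that fit, beside 6.02% of all genes in either direction. None of 12 p75 adaptor genes passed in any comparison with all mice. Adam17, a protease that sheds the p75 outer domain, had the smallest p in APP/PS1 mice (0.25, adjusted p = 0.0605), Zfp110 with CP2 (-0.13, adjusted p = 0.744, and -0.17 without mouse 16) and Arhgdia in CP2-treated against NTG mice (0.13, adjusted p = 0.123). Without mouse 16, Adam17 (0.27, adjusted p = 0.0254) and Rhoa, a small GTPase downstream of p75 (0.19, adjusted p = 0.0247), were higher in APP/PS1 mice. They are 2 of 12, beside 8.99% of all genes called in that fit.

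Of 18 genes that regulate Bdnf transcription, 1 passed against NTG in each APP/PS1 group, Fndc5, and it was lower. Over all genes, 5.68% passed for vehicle and 6.02% for CP2-treated mice, and 1.34% and 1.46% passed as lower. Fndc5 encodes the membrane precursor of irisin, a factor linked to Bdnf induction by exercise. It was 96.6 ± 6.72 CPM in NTG, 71.7 ± 6.71 in vehicle and 77.2 ± 5.16 in CP2-treated APP/PS1 mice (SD). The log2 fold changes against NTG were -0.42 in vehicle (edgeR adjusted p = 0.0112) and -0.31 in CP2-treated APP/PS1 mice (edgeR adjusted p = 0.0103). The vehicle group lay wholly below NTG. For vehicle mice 4.11% of all genes lay wholly below NTG. Without mouse 16 the APP/PS1 value was -0.39 (adjusted p = 0.00805). Ppargc1a, the coactivator that drives Fndc5 and mitochondrial biogenesis, had the smallest p of the list for CP2 against vehicle (0.11, adjusted p = 0.762, and 0.076 without mouse 16).

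Genes induced by neuronal activity or Trk signalling mostly had lower values in APP/PS1 mice. Of 21 tested, 20 had lower values than in NTG and 4 passed, all lower (1.34% of all genes), with a median log2 fold change of -0.46 against 0.00 over all genes. The summed level of the list was 804, 1360, 1380 and 897 CPM in NTG mice 7 to 10. In APP/PS1 mice 16 to 20 it was 1388, 849, 640, 548 and 795 CPM, so the sums overlapped and mouse 16 was above every NTG mouse. The 20 directions come from the same mice and are not independent of each other. Spry4, a feedback inhibitor of receptor tyrosine kinase signalling, fell from 17.02 ± 2.212 to 11.7 ± 1.33 CPM (SD, log2 fold change -0.54, edgeR adjusted p = 0.0136). Dusp4, a MAP kinase phosphatase, fell from 15.2 ± 2.19 to 8.46 ± 2.26 CPM (-0.84, adjusted p = 0.0271). The orphan nuclear receptors Nr4a2 (-0.63, adjusted p = 0.0143) and Nr4a3 (-0.58, adjusted p = 0.0367) fell as well, and Nr4a2 is also a marker of claustrum and deep cortex. Without mouse 16 these 4 had log2 fold changes of -0.60, -0.93, -0.56 and -0.53 and passed again.

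Markers of some regions were lower in the same comparison and those of others were higher. Of 10 dentate granule cell markers 8 were lower, with a median log2 fold change of -0.43, and of 10 thalamic markers all 10 were lower, with a median of -0.49. Hippocampal CA markers were lower in 6 of 8 (median -0.18). Higher were 10 of 10 striatal markers (median 1.38), 7 of 10 cortical layer markers (0.11) and 4 of 6 claustrum and deep cortex markers (0.14). Without mouse 16 the dentate and thalamic counts were again 8 and 10, with medians of -0.33 and -0.32. The CA, striatal, cortical layer and claustrum medians were then -0.18, -0.0096, -0.060 and 0.15. The part of these markers in the values of the activity genes was not tested.

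The most widely used markers of the activity list had wide errors and did not pass. Arc differed by -0.83 (adjusted p = 0.548), Fos by -0.67 (adjusted p = 0.398) and Egr1 by -0.46 (adjusted p = 0.706). Without mouse 16 the differences were larger and again did not pass, at -1.62 for Arc (adjusted p = 0.0615), -1.01 for Fos (adjusted p = 0.0814) and -0.98 for Egr1 (adjusted p = 0.199). Without mouse 16 all 21 genes were lower, 6 passed (2.4% of all genes passed as lower), and the median was -0.65. The added ones were Dusp1 (-1.01, adjusted p = 0.0412) and Dusp5 (-0.93, adjusted p = 0.033), a pair of MAP kinase phosphatases named after their values were seen.

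With CP2 against vehicle 17 of the 21 were higher and none passed, with a median of 0.16. Thalamic markers were higher in 10 of 10 (median 0.52, and 0.33 without mouse 16) and dentate granule cell markers in 8 of 10 (median 0.20, and 0.11 without mouse 16). CA markers were higher in 5 of 8 (median 0.12) and striatal markers in 0 of 10 (-1.25). Cortical layer markers were higher in 3 of 10 (-0.088) and claustrum and deep cortex markers in 2 of 6 (-0.096). Without mouse 16 the CA, striatal, cortical layer and claustrum medians were 0.062, 0.26, 0.077 and 0.029. Nr4a2 had the smallest p of the activity genes (0.40, adjusted p = 0.744, and 0.34 without mouse 16). Without mouse 16, 20 of the 21 activity genes were higher with a median of 0.34, and again none passed. Their summed level was 706, 827, 833, 813 and 1486 CPM in CP2-treated mice 21 to 25. Only mouse 25 was above the 548 to 849 CPM of APP/PS1 mice 17 to 20. The part of mouse 25 in these directions was not tested. Against NTG, 20 of the 21 were lower in CP2-treated mice, with a median of -0.22, and Dusp4 was the 1 that passed (-0.63, adjusted p = 0.0142), beside 1.46% of all genes. The 3 comparisons share mice, so the directions in one bear on those in another.

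**Figure D5:**
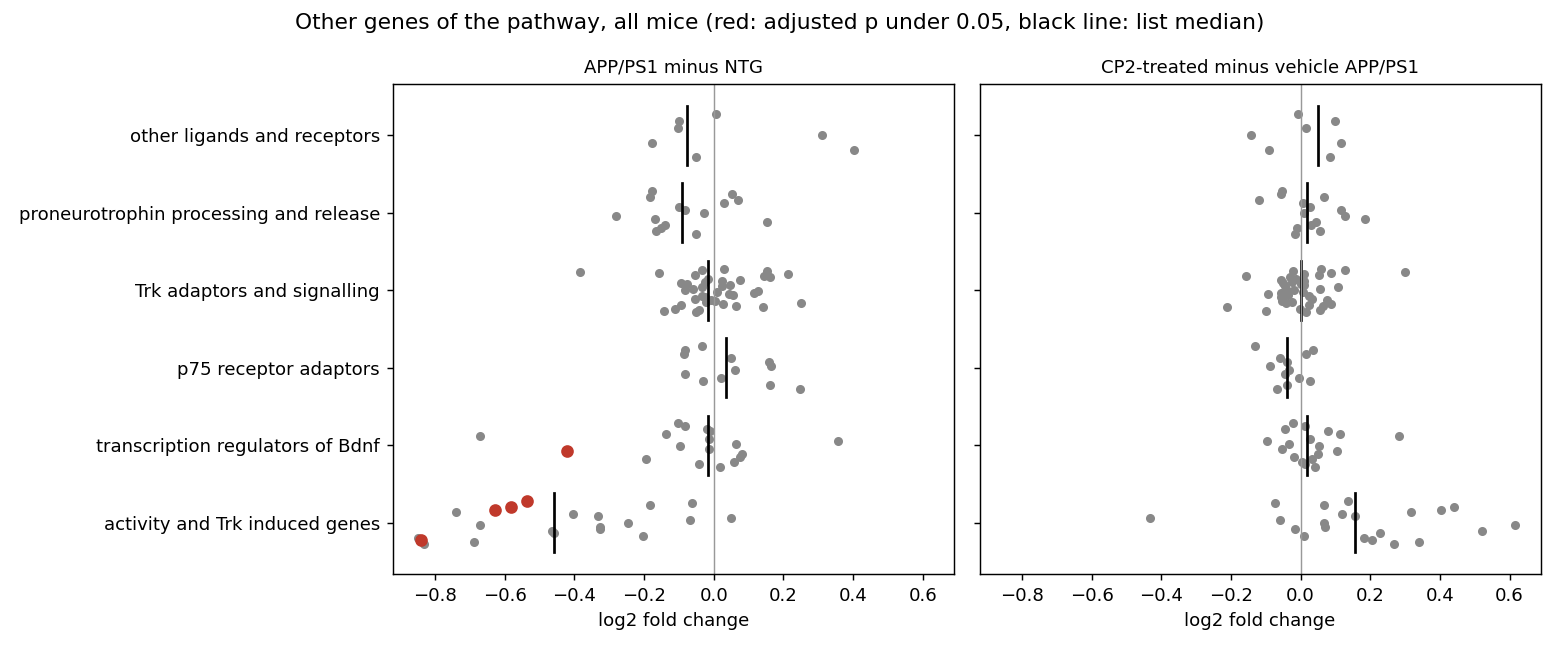
Log2 fold changes (horizontal axes) of tested genes in 6 pathway lists for APP/PS1 against NTG and for CP2 against vehicle in APP/PS1 mice, with one point per gene, red for adjusted p under 0.05 and a black line at each list's median. The activity and Trk induced list has its median at -0.46 on the left and 0.16 on the right, and the right panel has no red point.

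Within groups, the genes that varied most like each member across the 14 mice were found from log2 CPM after removing the group means, over 16514 genes. Bdnf was nearest to Nrn1, which encodes the activity-induced neuritin (r = 0.91, 0.87 to 0.94 when each mouse was left out), and to Neurod6 (r = 0.89). Vgf was nearest to Mlf2 (r = 0.96) and Fscn1 (r = 0.96). Ntrk2 was nearest to Clu, which encodes clusterin, an abundant astrocyte product (r = 0.93), and to Kctd15 (r = 0.93). Ntrk3 paired with Gm14329 (r = 0.90) and Dgki (r = 0.89), and Sort1 with B4galt6 (r = 0.95) and Dmxl2 (r = 0.94).

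For Ngfr the nearest were Rian (r = 0.97) and Klhl36 (r = 0.92), and for Ntf3 Nelfcd (r = 0.93) and Ptpru (r = 0.90). The Ntf3 values rested partly on mouse 16, without which they were 0.82 and 0.75. These are the highest of many correlations, in which both genes of a pair come from the same library with its depth and dissection, and they are given as descriptions.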

How the data were processed

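RNA from 14 mice was sequenced as TruSeq libraries. Per the labels and the study's methods, the authors aligned reads to mm10 with TopHat, counted them per Ensembl gene with featureCounts from Subread, reads on shared bases counting for each gene (versions and the strand setting are not given in the sources used here), and deposited raw counts with RPKM values, scaled by gene length and mapped reads. The RPKM totals exceed the summed gene counts, so both scales are used separately.

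Here counts were tested with edgeR 4.0.16 in R 4.3.3 (TMM factors, glmQLFit and glmQLFTest, Benjamini-Hochberg adjustment over all genes tested, adjusted p under 0.05 called), with the groups of each comparison alone in the fit and genes kept at over 1 CPM in every mouse of at least 1 group. All 7 genes passed this filter in every comparison, so the permutation test planned for untested genes was not needed. The SE follows from the quasi-likelihood F, and the 95% interval from the t distribution with its degrees of freedom. Correlations used log2 CPM with a prior count of 2. Alternatives used DESeq2 1.42.0, limma 3.58.1, other factors and filters, all groups in one fit and each mouse left out. Scripts were tested on simulated data. The genes, the lists and the rules for naming genes (each listed gene with adjusted p under 0.05, the smallest p per list and comparison, and the 2 most similar genes) were chosen with earlier results of these data known. Libraries are separate mice. Promoter sequences are RefSeq's, and only bases before each start were used. Where a gene is named from the fit without mouse 16, or is Arc, Fos or Egr1, it was chosen after its values were seen. A few listed genes are not reported here and are not drawn, but they count in the totals, sums and medians of their lists.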

Additional observations from a re-analysis of the deposited data

Results flagged for a closer look

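In 1 of the 21 groups of values formed by 7 genes in 3 groups of mice, 1 mouse stood far from the others. Ntf3 was 1.41 CPM in NTG mouse 8 against 2.35 to 2.41 CPM in the other 3 NTG mice. Chance alone would mark about 1 in 20 such groups. Without mouse 8 the log2 fold change of Ntf3 in APP/PS1 against NTG mice was -0.43 (edgeR adjusted p = 0.489), compared with -0.28 for all mice.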

How the results depend on the processing

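No paired analysis was possible because the groups share no replicate numbers. Of the 7 genes, 1 passed in APP/PS1 against NTG mice. This count was 3 with limma-voom, 0 with the ribosomal RNA share as a covariate (added after seeing the data), and 0 to 3 when each mouse was left out. For CP2-treated APP/PS1 against NTG mice it was 1 and became 2 with DESeq2, limma-voom or the covariate, 0 when at least 10 counts were required in every mouse or all 3 groups were fitted together, and 0 to 2 when each mouse was left out. For CP2 against vehicle it was 0 in every alternative run. The causes were not tested.

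Directions turned only for differences near 0 or with wide intervals. For Ngfr in APP/PS1 against NTG mice the covariate gave -0.11. For CP2 against vehicle, Ntf3 was -0.0068 with upper-quartile factors, -0.0010 without a filter, -0.078 with limma-voom and -0.088 with the covariate, and Ntrk2 was -0.020 with the covariate. For CP2-treated against NTG mice, Sort1 was -0.0047 with DESeq2 and with RLE factors, -0.0060 without a filter and -0.027 with limma-voom. With each mouse left out, Ntrk2 ranged from -0.0085 to 0.071 in APP/PS1 against NTG mice. For CP2 against vehicle the ranges were -0.17 to 0.096 for Ntf3, -0.011 to 0.049 for Ntrk2 and -0.0062 to 0.27 for Vgf, and for CP2-treated against NTG mice -0.21 to 0.081 for Ngfr and -0.036 to 0.033 for Sort1. Ntf3 and Ngfr rest on the fewest counts, from 76 and 196 in a library.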
